A study of Mus musculus with 24 samples.

Results

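The genes whose response to neuromedin U (NMU) in colonic group 2 innate lymphoid cells (ILC2) differed from their response in CD4 T cells of the same mice were sought among 24 RNA libraries. For each gene the NMU minus PBS difference in ILC2 was taken, and the mean of the same difference in NMUR1+ and NMUR1- CD4 T cells was subtracted from it, with the mouse as a block. All 24 of the 24 libraries entered: 8 from ILC2, set against 8 from NMUR1+ and 8 from NMUR1- CD4 T cells. The libraries came from 8 mice, 4 per treatment. Of 13509 genes with enough counts to be tested, 137 (1.01%) passed an adjusted p of 0.05 by edgeR's quasi-likelihood test with Benjamini-Hochberg adjustment over all genes tested, 60 of them higher (0.444%) and 77 lower (0.57%). "Higher" and "lower" below refer to this difference of log2 changes unless a level is named.

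NMU is a neuropeptide that enteric neurons release, and its receptor NMUR1 is a Gq-coupled receptor that sits on ILC2 in the gut and lung. Signals through NMUR1 are known to raise calcium, ERK and NFAT activity in ILC2 and to promote the release of type 2 cytokines such as IL-5 and IL-13 and of the growth factor amphiregulin. ILC2 share much of their gene program with T helper 2 cells but carry no antigen receptor. CD4 T cells of the colon include many activated and regulatory T cells, which hold high resting levels of IRF4, CTLA-4 and OX40.

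All mice were Nmur1 iCre-eGFP animals, in which eGFP reports the Nmur1 gene, and every group drank 3% dextran sulfate sodium (DSS), an agent that injures the colonic epithelium, for 5 days, followed by water for 3 days. Mice 1 to 4 received NMU and mice 5 to 8 received phosphate-buffered saline (PBS), in each case by intraperitoneal injection every other day over that time. No group of mice without DSS was included here, and age and sex are not given in the labels. Cells of the colonic lamina propria were sorted as eGFP+ ILC2 (CD45+ Lin- CD90.2+ CD127+ KLRG1+), as eGFP+ CD4 T cells (CD45+ CD3+ CD5+ CD4+, called NMUR1+ here) and as eGFP- CD4 T cells with the same surface gate (called NMUR1-). A mouse therefore gave 3 libraries. The 6 groups, of 4 libraries each, are ILC2 of NMU mice, ILC2 of PBS mice, and the same pair for NMUR1+ and for NMUR1- CD4 T cells. Sample labels name 4 mice for each treatment and the overall design text 3, and the labels were followed because they name every library. In bulk libraries such as these, fewer cells of a type and less RNA per cell cannot be told apart.

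Library totals ran from 8485266 to 17854961 counts, with a median of 12468364. The 12 ILC2 markers summed to between 9600 and 12200 CPM (library-scaled counts, TMM-adjusted) in ILC2 of NMU mice and between 9740 and 10700 CPM in ILC2 of PBS mice, against at most 3720 CPM in any T cell library. RNA of cells outside the gates was also present. Immunoglobulin genes took 0.0241% to 0.867% of counts in the 4 ILC2 libraries of NMU mice and 0.665% to 7.93% in the 4 of PBS mice. In NMUR1+ libraries that share ran from 0.784% to 30.4% and was highest in mice 1, 4, 5 and 7, which are 2 NMU and 2 PBS mice. The number of genes with any count ran from 10778 to 12637 in ILC2 of NMU mice and from 12635 to 13736 in ILC2 of PBS mice.

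The tested genes were split by level. Well expressed genes, 7178 in number, averaged at least 10 CPM in each of the 3 populations and had counts in every group. Zero-group genes, 1171 in number, had 0 counts in all 4 libraries of at least 1 group. The remaining 5160 genes lay in between. Among well expressed genes 55 were higher (0.766%) and 26 were lower (0.362%). Among genes in between, 5 were higher (0.0969%) and 24 lower (0.465%). Among zero-group genes 27 were lower (2.31%) and 0 were higher. For that 0, edgeR's unadjusted p was under 0.05 with a positive difference in 51 genes, and DESeq2 called 28 and limma 0.

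The number of called genes depended on single mice. Leaving out a mouse gave 57, 206, 93, 69, 59, 85, 91 and 55 called genes for mice 1 to 8, against 137 with all mice. All 137 genes kept their sign in each of these fits, and 15 of the 55 well expressed higher genes passed in all of them. So did 1 of the 26 well expressed lower genes and 10 of the 27 zero-group genes. Among genes in between, 0 of the 5 higher and 2 of the 24 lower ones did. Without the NMUR1+ libraries of mice 1, 4, 5 and 7, those with the most immunoglobulin RNA, 25 genes passed. Without the ILC2 libraries of mice 5 and 8, a choice made after seeing the data, 46 genes passed, 14 of them well expressed and higher.

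Of the 55 well expressed higher genes, 54 also passed the test of NMU against PBS within ILC2. The changes in ILC2 and in the T cells are terms of the difference that chose these genes, so their values are a description only. Over these 55 genes the log2 change with NMU in ILC2 ran from 0.43 to 3.60 with a median of 1.30. In NMUR1+ cells the change of the same genes ran from -0.41 to 0.25 with a median of 0.03, and in NMUR1- cells from -0.51 to 0.60 with a median of 0.04. None of the 55 passed the test within either T cell population, where edgeR called 0 genes of any kind (0% of genes tested in each), with 421 genes at an unadjusted p under 0.05 in NMUR1+ cells and 234 in NMUR1- cells. Within ILC2 the same fit of 24 libraries called 1053 genes (7.79%), and a fit of the 8 ILC2 libraries alone called 74. Of the 55 genes, 37 differed by at least 1 on the log2 scale.

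**Figure D1:**
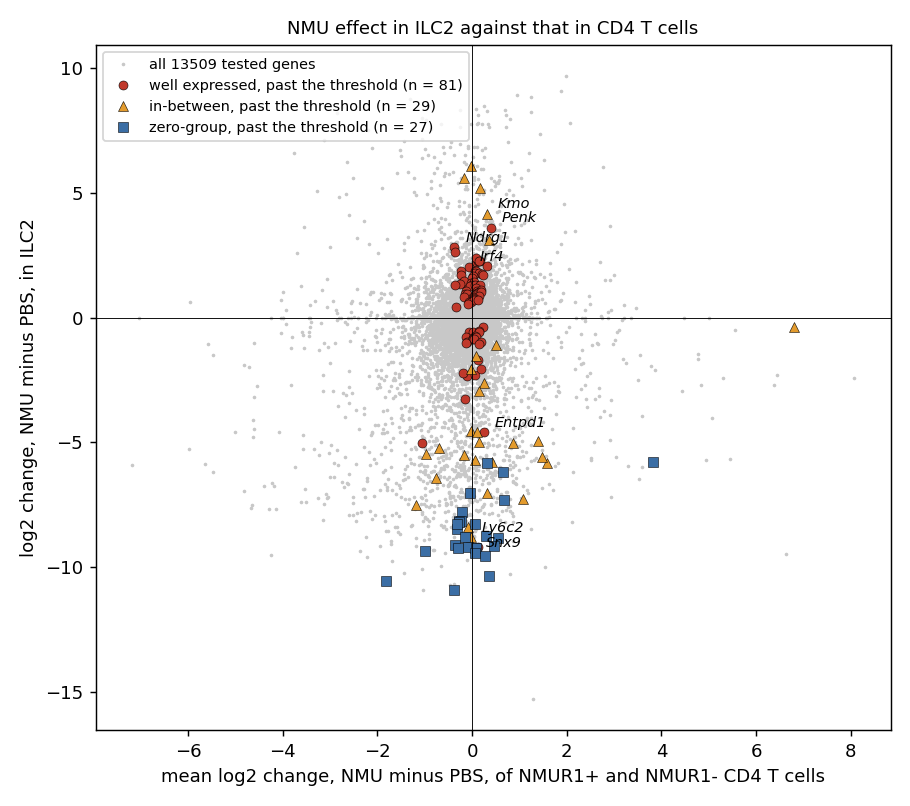
Each point is a gene: the x axis is the mean log2 change (NMU minus PBS) of NMUR1+ and NMUR1- CD4 T cells and the y axis the log2 change in ILC2. Coloured marks are the 137 genes past the threshold by expression class, grey points all 13509 tested genes. For the 55 well expressed higher genes the change in ILC2 runs from 0.43 to 3.60, and the 27 zero-group genes lie at -5.79 or lower on the y axis, a fitted value that depends on the prior count.

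The level in ILC2 of PBS mice is a term of the difference that chose these genes, so where it lies is a description only. In 50 of the 55, the mean level in ILC2 of PBS mice lay below the means of both NMUR1+ and NMUR1- cells of PBS mice, where 43.1% of all well expressed genes did. With NMU, 33 of the 55 still lay below both T cell populations of NMU mice. The exceptions without NMU were Uap1, Cd83, Pcyt1a and Ifnar1, whose levels lay between those of the T cell populations, and Prnp, which lay above both. Prnp, the prion protein gene, measured 204, 171, 135 and 140 CPM in ILC2 of NMU mice and 64.2, 69.7, 64.3 and 115 CPM in ILC2 of PBS mice, against a mean of 31.9 ± 4.32 CPM in NMUR1+ cells of PBS mice and 26.2 ± 6.11 CPM in NMUR1- cells of PBS mice (SD, n = 4 each). These 5 genes were singled out after their values were seen.

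Irf4, Tnfrsf4 and Ctla4 encode a transcription factor, a costimulatory receptor and an inhibitory receptor of activated lymphocytes. Promoter windows, the 250 bases before a transcript start in the RefSeq promoter table, are shown because the 3 genes moved together in ILC2. They come from RefSeq on build GRCm38.p6 and all lie on the plus strand, and capitals mark the NFAT core GGAAA read on either strand. The genes lie at chr13:30749233-30766981 (Irf4), chr4:156013595-156016613 (Tnfrsf4) and chr1:60909025-60915832 (Ctla4). The window of Irf4 is chr13:30748983-30749232, that of Tnfrsf4 is chr4:156013445-156013694 and that of Ctla4 is chr1:60908775-60909024. The windows of Irf4 and Ctla4 end just before the gene's first base, whereas that of Tnfrsf4 belongs to a start inside the gene's span and covers its first bases.
Irf4: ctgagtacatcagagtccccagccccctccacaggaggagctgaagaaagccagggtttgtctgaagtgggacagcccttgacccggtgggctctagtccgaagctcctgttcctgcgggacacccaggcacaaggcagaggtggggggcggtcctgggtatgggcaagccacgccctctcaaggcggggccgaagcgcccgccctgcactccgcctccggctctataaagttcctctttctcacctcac
Tnfrsf4: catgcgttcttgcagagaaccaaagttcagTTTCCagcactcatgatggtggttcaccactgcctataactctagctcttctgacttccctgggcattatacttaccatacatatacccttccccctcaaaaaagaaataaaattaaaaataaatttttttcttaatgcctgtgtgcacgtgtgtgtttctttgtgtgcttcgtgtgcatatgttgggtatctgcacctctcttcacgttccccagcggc
Ctla4: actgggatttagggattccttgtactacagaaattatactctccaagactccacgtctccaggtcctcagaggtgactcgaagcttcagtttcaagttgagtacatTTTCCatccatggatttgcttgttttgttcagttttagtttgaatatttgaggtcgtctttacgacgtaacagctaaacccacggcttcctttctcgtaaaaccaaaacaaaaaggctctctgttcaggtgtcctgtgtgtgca
The NFAT core occurred in the windows of Tnfrsf4 and Ctla4 and not in that of Irf4. None of the 3 windows held the AP-1 site TGANTCA, the cyclic AMP element TGACGTCA or a pair of GAAA cores 2 bases apart, the core of interferon response elements bound by IRF proteins, each searched on both strands. Of 32851 promoter windows of the same length, 55.6% held GGAAA, 6.75% the AP-1 site, 2.98% the paired GAAA core and 1.55% the cyclic AMP element. Counted by gene, among the 40 of the 55 well expressed higher genes with a window, 23 held GGAAA, 3 the AP-1 site, 1 the paired GAAA core and 0 the cyclic AMP element. A gene can have more than 1 window, so these counts are not of the same unit as the shares above. Counted by window, 29 of their 56 windows held GGAAA (51.8%), 3 the AP-1 site (5.36%), 1 the paired GAAA core (1.79%) and 0 the cyclic AMP element. A match or its absence describes these letters only.

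Irf4 encodes the factor that pairs with BATF and AP-1 proteins to drive effector genes in lymphocytes. It measured 192, 186, 169 and 226 CPM in ILC2 of NMU mice, against 48.1, 42.2, 60.0 and 37.2 CPM in ILC2 of PBS mice. In NMUR1+ cells it measured 108, 120, 87.2 and 124.8 CPM in NMU mice and 121, 116, 152 and 91.4 CPM in PBS mice, and in NMUR1- cells 84.1, 99.7, 122 and 101 CPM in NMU mice and 80.3, 87.0, 120 and 124.5 CPM in PBS mice. The 4 ILC2 libraries of NMU mice thus lay above all 16 T cell libraries, whose highest was 152 CPM, and the 4 of PBS mice lay below all 16, whose lowest was 80.3 CPM. The log2 change with NMU was 2.04 (SE 0.19) in ILC2, -0.13 in NMUR1+ and -0.02 in NMUR1- cells. Their difference was 2.12 (SE 0.21, adjusted p = 9.2e-05, edgeR). The log2 CPM of ILC2 minus the mean log2 CPM of the T cells of the same mouse ran from 0.72 to 1.01 in the 4 NMU mice and from -1.52 to -1.03 in the 4 PBS mice. Those ranges do not overlap, which an exact two-sided permutation test puts at p = 0.0286, the smallest that 4 against 4 allow.

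Tnfrsf4 encodes OX40, a receptor of the TNF superfamily that sustains T helper cell responses. It measured 93.7, 64.2, 74.9 and 57.6 CPM in ILC2 of NMU mice and 17.7, 15.04, 19.9 and 7.26 CPM in ILC2 of PBS mice. NMUR1+ cells held 3713, 2531, 2538 and 2489 CPM in NMU mice and 3170, 2433, 2694 and 2364 CPM in PBS mice, and NMUR1- cells held 2279, 1768, 1731 and 2230 CPM in NMU mice and 1958, 1808, 1598 and 1343 CPM in PBS mice. All 8 ILC2 libraries therefore lay far under the 16 T cell libraries, and the NMU and PBS libraries of ILC2 did not overlap. The log2 change was 2.28 (SE 0.23) in ILC2, 0.08 in NMUR1+ and 0.26 in NMUR1- cells, a difference of 2.16 (SE 0.20, adjusted p = 9.2e-05, edgeR).

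Ctla4 encodes the inhibitory receptor that competes with CD28 for its ligands. ILC2 of NMU mice held 98.4, 80.0, 247 and 110 CPM and ILC2 of PBS mice 20.3, 27.4, 34.2 and 21.1 CPM. The T cell libraries held 1317 to 2624 CPM with a median of 1696 CPM. Mouse 3 carried the highest Ctla4 level among NMU mice, and every NMU library of ILC2 lay above every PBS library of ILC2. The log2 change was 2.38 (SE 0.27) in ILC2, 0.06 in NMUR1+ and 0.11 in NMUR1- cells, a difference of 2.21 (SE 0.35, adjusted p = 0.0067, edgeR).

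**Figure D2:**
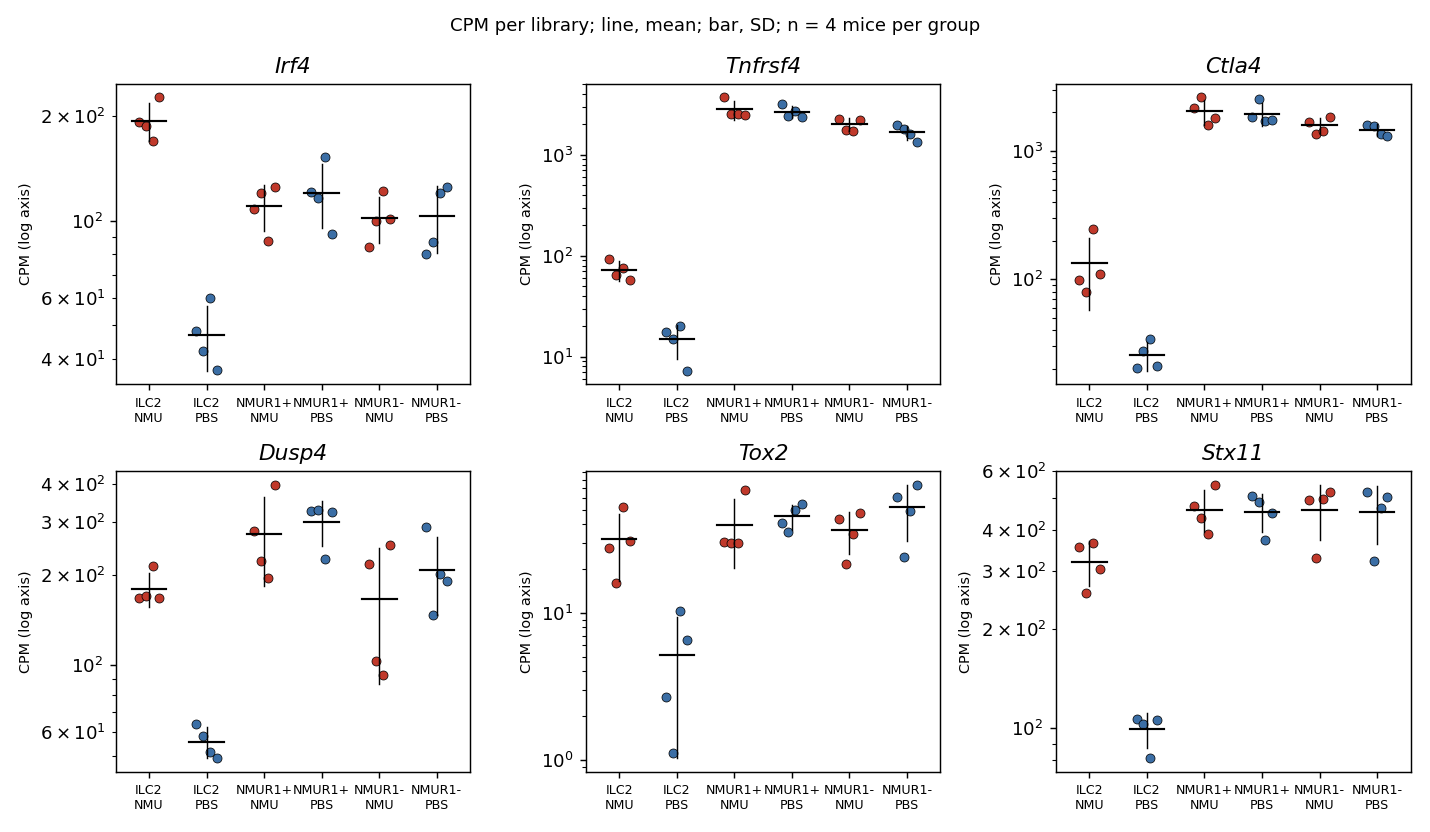
CPM on a log axis of Irf4, Tnfrsf4, Ctla4, Dusp4, Tox2 and Stx11 in the 24 libraries, NMU in red and PBS in blue, with the mean as a line and the SD as a bar (n = 4 mice per group). In each panel the ILC2 libraries of NMU mice sit above those of PBS mice, while NMU and PBS overlap within each T cell population.

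T cell markers were measured in the ILC2 libraries beside these values, and their part in the changes of Ctla4 and Tnfrsf4 was not tested. The 12 T cell markers summed to 681 to 996 CPM in ILC2 of NMU mice and 538 to 805 CPM in ILC2 of PBS mice, ranges that overlap, against 6740 to 9340 CPM in T cell libraries. The 12 markers went in both directions. Cd5, part of the T cell gate, had 4 counts over the 4 ILC2 libraries of NMU mice and 33 over those of PBS mice. Cd3e had 177 and 364 counts, Cd3d 42 and 123, and Cd6 69 and 209, in ILC2 of NMU and of PBS mice in each case. Cd2, an adhesion receptor of T cells, passed the test as lower, with 0.198, 0.00, 1.45 and 0.930 CPM in ILC2 of NMU mice and 3.42, 5.38, 4.06 and 8.65 CPM in ILC2 of PBS mice. Foxp3, the defining factor of regulatory T cells, had a mean of 0 CPM in ILC2 of NMU mice and 0.252 CPM in ILC2 of PBS mice. Lat had 12056 and 14410 counts, Trac 320 and 470, Cd4 266 and 290, and Themis 265 and 243, in ILC2 of NMU and of PBS mice in each case. Cd3g, Cd247, Trbc1 and Trbc2 had more counts in ILC2 of NMU mice, 2684, 716, 12810 and 9341 in that order, than in ILC2 of PBS mice, with 2063, 430, 9049 and 5962.

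Among transcription factors of the IRF4 and BATF group, 2 of 15 tested members were higher and 0 lower, Irf4 and Tox2, with a median difference of 0.26 over the list against -0.07 over all genes tested. For the 0 lower, 2 members had an unadjusted p under 0.05 in that direction, and DESeq2 called 1 and limma 0. Tox2, a high mobility group factor of activated and follicular T cells, measured 27.4, 15.99, 52.6 and 30.7 CPM in ILC2 of NMU mice and 2.67, 1.11, 10.3 and 6.56 CPM in ILC2 of PBS mice. Its difference was 3.20 (SE 0.49, adjusted p = 0.0043, edgeR), and its T cell levels averaged 39.6 ± 19.3 CPM in NMU mice and 45.3 ± 8.86 CPM in PBS mice in NMUR1+ cells (SD, n = 4 each). The 16 T cell libraries ran from 21.3 to 74.2 CPM, a range that 3 of the 4 ILC2 libraries of NMU mice and none of those of PBS mice entered. Batf, the partner of IRF4, differed by 0.15 (adjusted p = 0.757, edgeR) and Prdm1, the gene of Blimp-1, by -0.19 (adjusted p = 0.934, edgeR), and neither passed.

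Dusp4 encodes a nuclear phosphatase that switches off ERK and other MAP kinases and is itself induced by ERK signals. It was the only member called among 15 MAP kinase feedback genes, with a list median of -0.21. ILC2 of NMU mice held 167, 170, 214 and 167.99 CPM and ILC2 of PBS mice 63.7, 58.3, 51.7 and 49.3 CPM, with no overlap. The difference was 2.03 (SE 0.29, adjusted p = 0.0027, edgeR). Other members of the feedback list that answer the same kinase did not pass: Dusp6 differed by 0.27, Dusp5 by -0.04 and Spry2 by -0.59. Of 25 AP-1 and immediate early genes, which respond within minutes, 0 passed. Of these, 1 higher and 2 lower had an unadjusted p under 0.05, DESeq2 and limma called 0, and the list median was -0.25. Of 26 genes of calcium, NFAT and Gq signaling, 0 passed, with 2 higher and 4 lower at an unadjusted p under 0.05, 2 lower called by DESeq2 and 0 by limma.

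Costimulatory receptors and ligands of the TNF superfamily gave 1 higher gene, Tnfrsf4, and 1 lower, Cd40lg, among 18 tested, with a median difference of 0.48. The ligand of OX40, Tnfsf4, averaged 70.9 ± 12.4 CPM in ILC2 of NMU mice and 17.0 ± 6.83 CPM in ILC2 of PBS mice (SD, n = 4 each), a difference of 1.96 that missed the threshold (adjusted p = 0.0581, edgeR). For Tnfsf9, the 4-1BB ligand, the difference was 1.03 (adjusted p = 0.0595, edgeR). Receptors closest in function to OX40 did not pass either: Tnfrsf9 differed by 0.53 and Tnfrsf18, the gene of GITR, by 0.31.

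Inhibitory and CD28 family receptors gave 1 higher gene, Ctla4, and 1 lower, Vsir, among 17 tested, with a median of 0.54. Vsir encodes VISTA, an inhibitory ligand and receptor of myeloid and T cells. It measured 35.8, 42.1, 25.3 and 30.4 CPM in ILC2 of NMU mice and 78.5, 61.8, 38.2 and 59.4 CPM in ILC2 of PBS mice, ranges that overlap, with a difference of -0.83 (SE 0.18, adjusted p = 0.0286, edgeR). Its within-mouse differences did not overlap between treatments. The call was lost when mouse 1, 3, 4, 5, 6 or 8 was left out, at adjusted p values of 0.0592 to 0.114. Pdcd1, the gene of PD-1, differed by 0.78 (adjusted p = 0.480, edgeR) and Havcr2, the gene of TIM-3, by 2.502 (adjusted p = 0.131, edgeR).

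Regulatory T cell genes gave 3 higher members among 14, Tnfrsf4, Ctla4 and Capg, and 1 lower, Entpd1, with a median of 0.03. Capg, which encodes an actin-capping protein, measured 1173, 587, 987 and 872 CPM in ILC2 of NMU mice and 437, 481, 361 and 183 CPM in ILC2 of PBS mice. Foxp3 was at 0 counts in ILC2 of NMU mice. Which cells held the RNA of the 3 higher members was not tested. Entpd1 encodes CD39, an enzyme that degrades extracellular ATP and is carried by regulatory T cells and macrophages. It measured 0.00, 1.58, 4.26 and 0.215 CPM in ILC2 of NMU mice and 41.3, 32.0, 6.09 and 70.02 CPM in ILC2 of PBS mice, against a mean of 280 ± 61.0 CPM in NMUR1+ cells of NMU mice and 257 ± 11.4 CPM in those of PBS mice (SD, n = 4 each). The difference for Entpd1 was -4.81 (SE 1.05, adjusted p = 0.0497, edgeR), and it lost its call without mouse 1, 2, 4, 5, 6 or 8, at adjusted p values of 0.0983 to 0.144.

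Stx11 encodes a syntaxin that cytotoxic lymphocytes need to release granules. It measured 353, 257, 365 and 304 CPM in ILC2 of NMU mice and 107, 103, 81.3 and 106 CPM in ILC2 of PBS mice, a gap wider than either group's range. NMUR1+ cells averaged 459 ± 65.9 CPM in NMU mice and 453 ± 58.8 CPM in PBS mice, and the difference of changes was 1.67 (SE 0.18, adjusted p = 2.0e-04, edgeR). Sytl2 encodes a synaptotagmin-like Rab27 effector that ties granules to the membrane, and held 74.2, 62.3, 81.5 and 68.6 CPM in ILC2 of NMU mice and 26.6, 15.04, 25.3 and 20.6 CPM in ILC2 of PBS mice. In both genes the ILC2 libraries of NMU and PBS mice did not overlap. Irf4, Tnfrsf4, Stx11 and the zero-group gene Snx9 were the 4 of the 137 called genes that passed in all 18 alternative analyses. Those 18 include limma on the 8 within-mouse differences, which called these 4 only, so no other gene could have passed in all 18.

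Of the 15 well expressed higher genes that passed whichever mouse was left out, 5 more are given with their roles. They were taken after their values were seen and stand for no tested group. Itgb2, the common chain of the beta 2 integrins, measured 349, 305, 272 and 298 CPM in ILC2 of NMU mice and 179, 175, 100 and 131 CPM in ILC2 of PBS mice, a difference of 0.99 (SE 0.14, adjusted p = 0.0021, edgeR). Wdr1, which helps cofilin take actin filaments apart, differed by 0.87, and Lsp1, an actin-binding protein of leukocytes, by 0.90. Anxa2, a membrane-binding annexin, measured 195, 198, 169 and 216 CPM in ILC2 of NMU mice and 23.5, 67.1, 41.5 and 82.8 CPM in ILC2 of PBS mice. Cd52, a small surface glycoprotein of lymphocytes, held 833, 615, 737 and 691 CPM with NMU and 235, 238, 207 and 171 CPM with PBS in ILC2. For none of these 5 genes did the ILC2 libraries of NMU and PBS mice overlap. The other members of the 15 were Slfn2, a regulator of T cell quiescence that differed by 1.19, Serpinb6a, an inhibitor of serine proteases (2.08), Ttc39c (2.24), and Irf4, Tnfrsf4, Ctla4, Stx11, Sytl2, Dusp4 and Tox2.

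**Figure D3:**
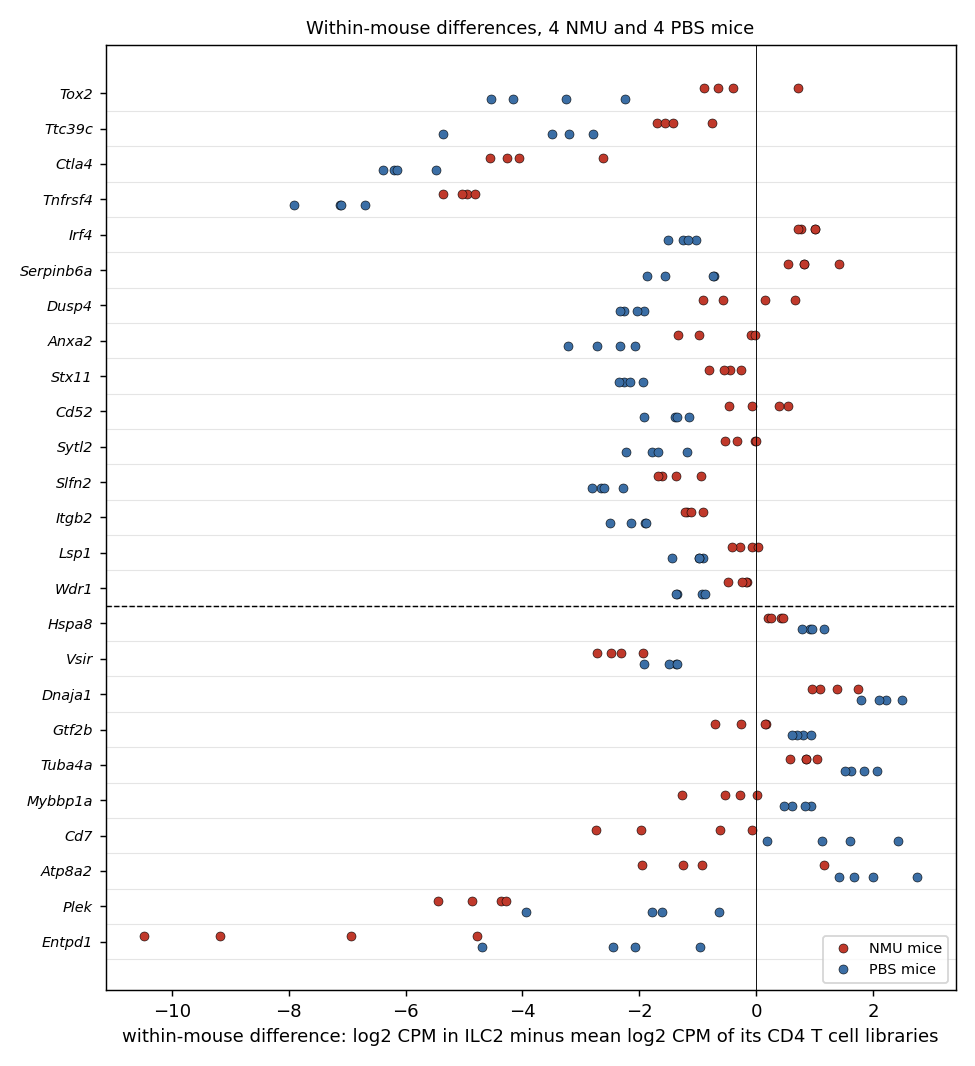
Within-mouse difference (log2 CPM in ILC2 minus the mean log2 CPM of the 2 T cell libraries of that mouse) for the 15 well expressed higher genes that passed whichever mouse was left out, above the dashed line, and the named well expressed lower genes reported here, below it. NMU mice are red and PBS mice blue, 4 each; in every row shown the 2 colours do not overlap.

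Counting over all genes, the 4 NMU and 4 PBS within-mouse differences did not overlap for 5.37% of genes tested, 2.26% with NMU higher and 3.11% with NMU lower. Among well expressed genes these shares were 3% and 2.84%, among genes in between 1.41% and 2.89%, and among zero-group genes 1.45% and 5.72%, higher before lower. Of the 55 well expressed higher genes 54 did not overlap, and of the 26 lower genes 22 did not. Of the called genes in between, 4 of 5 higher and 19 of 24 lower ones did not overlap, and of the 27 zero-group genes 20 did not. This count comes from the same libraries as the test and adds nothing independent to it.

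Of 35 proliferation genes tested, 2 passed, Tk1 and Asf1b, and 0 were lower, with 17 higher and 0 lower at an unadjusted p under 0.05. DESeq2 called 10 higher and 0 lower, and limma 0. The median difference was 1.17, and 32 of 35 members were positive, where 45.3% of all genes tested were. Tk1, the thymidine kinase of S phase, measured 22.0, 25.9, 18.6 and 24.8 CPM in ILC2 of NMU mice and 1.25, 5.94, 1.94 and 10.3 CPM in ILC2 of PBS mice, and Asf1b, which delivers histones to newly replicated DNA, 43.9, 88.4, 92.4 and 123 CPM with NMU and 15.5, 35.7, 15.9 and 14.9 CPM with PBS. Their differences were 2.52 (adjusted p = 0.0266, edgeR) and 1.83 (adjusted p = 0.0478, edgeR). Tk1 lost its call without mouse 1, 4, 5 or 7 (adjusted p 0.0682 to 0.0810) and Asf1b without mouse 1, 2, 3, 4, 5, 7 or 8 (0.0630 to 0.157). Mki67, the usual marker of cycling cells, averaged 49.7 CPM in ILC2 of NMU mice and 25.5 CPM in ILC2 of PBS mice, with a difference of 1.08 that did not pass (adjusted p = 0.558, edgeR). Cdca5, a cohesin regulator from the genes in between, held 7.22, 23.1, 18.4 and 18.6 CPM with NMU and 3.08, 0.95, 0.0923 and 3.63 CPM with PBS in ILC2, and its difference was 2.99 (adjusted p = 0.0426, edgeR), lost without mouse 1, 2, 3, 4, 6 or 8 (0.0639 to 0.119).

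The cytokines for which NMU is best known did not pass the test of the difference between ILC2 and T cells. Among 20 cytokines and growth factors tested, 1 was higher, Penk, and 0 lower, with 4 higher and 2 lower at an unadjusted p under 0.05. DESeq2 called 3 higher and 2 lower, and limma 0. The list median was -0.63. Areg, which encodes amphiregulin, measured 478, 352, 613 and 741 CPM in ILC2 of NMU mice and 208, 210, 316 and 245 CPM in ILC2 of PBS mice, and these did not overlap. Its difference against the T cells was 0.85 (SE 0.53, adjusted p = 0.506, edgeR), with changes of 1.16 in ILC2, 0.35 in NMUR1+ and 0.33 in NMUR1- cells, and the within-mouse differences overlapped. Il5 averaged 1654 ± 235 CPM in ILC2 of NMU mice and 1023 ± 229 CPM in ILC2 of PBS mice (SD, n = 4 each), with a difference of 0.69 (SE 1.21, adjusted p = 0.872, edgeR). Its T cell side rested on few reads in NMUR1- cells, which held 9 counts in NMU mice and 17 in PBS mice. Il13 differed by -1.52 (SE 1.24, adjusted p = 0.640, edgeR), Il4 by -1.38 (SE 1.16, adjusted p = 0.650, edgeR) and Csf2 by 1.29 (SE 1.24, adjusted p = 0.699, edgeR). Their counts in NMUR1- cells of NMU and PBS mice were also few: 17 and 8 for Il13, 12 and 6 for Il4, 9 and 31 for Csf2. Within ILC2 the NMU and PBS libraries did not overlap for Il5 and Csf2 and overlapped for Il13 and Il4. With such standard errors a difference could have been missed. Il5 in NMUR1+ cells ran from 7.81 to 79.8 CPM in NMU mice and from 3.74 to 47.5 CPM in PBS mice, and its standard error against NMUR1+ cells alone was 1.16.

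Penk encodes proenkephalin, the precursor of the enkephalin opioid peptides. It measured 66.2, 78.8, 104 and 151 CPM in ILC2 of NMU mice and 23.3, 1.82, 1.57 and 6.25 CPM in ILC2 of PBS mice. NMUR1+ cells held more and varied widely, with 771, 153, 174 and 880 CPM in NMU mice and 887, 233, 380 and 226 CPM in PBS mice. NMUR1- cells held 234, 74.4, 21.5 and 421 CPM in NMU mice and 327, 77.2, 55.3 and 35.9 CPM in PBS mice. In mice 2 and 3 the NMUR1- level lay below that of ILC2. The difference was 4.12 (SE 0.81, adjusted p = 0.0279, edgeR) and failed without mouse 2, 4, 5, 6, 7 or 8 (adjusted p 0.0516 to 0.0887). Il10, an anti-inflammatory cytokine, held 64.5, 10.6, 74.3 and 176 CPM in ILC2 of NMU mice and 15.1, 4.75, 0.00 and 2.62 CPM in ILC2 of PBS mice, ranges that overlap through mice 2 and 5. Its difference of 3.94 (SE 1.17) did not pass with edgeR (adjusted p = 0.144) but did with DESeq2 (adjusted p = 0.0059). Nmur1 itself measured 171, 201, 260 and 328 CPM in ILC2 of NMU mice and 290, 224, 235 and 167 CPM in ILC2 of PBS mice, with a difference of -0.06 (SE 0.77, adjusted p = 1.00, edgeR). The NMU receptor gene was expressed in every ILC2 library and did not pass.

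Ndrg1, a stress-responsive gene of cell differentiation, measured 38.8, 40.0, 51.2 and 31.3 CPM in ILC2 of NMU mice and 0.250, 11.2, 3.14 and 8.11 CPM in ILC2 of PBS mice. Its difference was 3.45 (SE 0.64, adjusted p = 0.0190, edgeR), lost without mouse 1, 3, 4 or 7 (adjusted p 0.0522 to 0.0683). Plxnd1, a receptor for semaphorins, differed by 2.24 (adjusted p = 0.0433, edgeR) and lost its call without mouse 1, 2, 3, 6, 7 or 8 (0.0674 to 0.155). Cd83, known as an activation marker of dendritic and B cells and the only gene called among 19 NF-kappaB factors and targets, measured 3305, 3577, 1839 and 3120 CPM in ILC2 of NMU mice and 988, 1234, 638 and 419 CPM in ILC2 of PBS mice. Its difference was 1.90 (adjusted p = 0.0446, edgeR), lost without mouse 1, 2, 3, 4, 5, 7 or 8 (0.0630 to 0.130). Ccr7, the receptor that guides cells to lymph nodes, measured 266, 208, 133 and 186 CPM with NMU and 98.4, 95.3, 49.4 and 88.3 CPM with PBS in ILC2. Its difference was 1.32 (adjusted p = 0.0217, edgeR), lost without mouse 1, 4, 6 or 7 (0.0556 to 0.0754). Kmo, a kynurenine pathway enzyme and a gene in between the classes, differed by 4.17 (adjusted p = 0.0435, edgeR), with 80.4, 44.4, 219 and 145 CPM in ILC2 of NMU mice and 0.00, 4.12, 12.3 and 10.8 CPM in ILC2 of PBS mice, and lost its call without mouse 1, 3, 4, 6, 7 or 8 (0.0781 to 0.117).

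Against each T cell population alone fewer genes passed. The difference from NMUR1+ cells gave 46 genes (0.341%), 20 higher (0.148%) and 26 lower (0.192%). That from NMUR1- cells gave 36 genes (0.266%), 16 higher (0.118%) and 20 lower (0.148%). Both comparisons use the same 8 ILC2 libraries. Irf4 differed by 2.18 from NMUR1+ cells (adjusted p = 3.4e-04, edgeR) and by 2.07 from NMUR1- cells (adjusted p = 7.2e-04, edgeR). Ctla4 differed by 2.22 from NMUR1+ cells (adjusted p = 0.0202, edgeR) and by 2.21 from NMUR1- cells (adjusted p = 0.0253, edgeR). The NMU effects of the 2 T cell populations differed from each other for 1 gene (0.0074%), the immunoglobulin segment Igkv14-130, while DESeq2 called 6 genes and limma 0.

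Of the 26 well expressed lower genes, 21 had a mean in ILC2 of PBS mice above both T cell populations of PBS mice, where 38.2% of well expressed genes did. This too describes a level that entered the choice. Cd7, an immunoglobulin family receptor of T and innate lymphoid cells, measured 46.0, 28.7, 6.24 and 8.94 CPM with NMU and 131, 108, 77.5 and 56.1 CPM with PBS in ILC2, a difference of -2.60 (adjusted p = 0.0497, edgeR), lost without mouse 3, 4, 5, 6, 7 or 8 (0.0517 to 0.132). Atp8a2, a phospholipid flippase, differed by -2.61 (adjusted p = 0.0446, edgeR), with 38.5 CPM in mouse 1 against 3.73 to 6.98 CPM in the other NMU mice, and lost its call without mouse 2, 3, 4, 5, 6, 7 or 8 (0.0705 to 0.155).

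The heat shock and chaperone list also held lower genes. Of 14 heat shock and chaperone genes, 2 were lower, Hspa8 and Dnaja1, and 0 higher, with 1 higher and 7 lower at an unadjusted p under 0.05. DESeq2 called 4 lower and 0 higher, and limma 0. The list median was -0.43. Hspa8, the constitutive Hsp70, measured 2295, 1951, 1979 and 2428 CPM in ILC2 of NMU mice and 2885, 3211, 2481 and 2697 CPM in ILC2 of PBS mice, with a difference of -0.62 (SE 0.11, adjusted p = 0.0172, edgeR). Its change was -0.38 in ILC2, 0.15 in NMUR1+ and 0.31 in NMUR1- cells, and it lost its call without mouse 3 or 8 (0.0531 to 0.0588). Dnaja1, its J-domain partner, measured 589, 601, 368 and 508 CPM with NMU and 1022, 959, 767 and 928 CPM with PBS in ILC2. Its difference was -0.86 (adjusted p = 0.0386, edgeR), lost without mouse 1, 3, 4, 5, 6 or 8 (0.0664 to 0.135). Hspa5, the endoplasmic reticulum chaperone, differed by -0.04 and did not pass.

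Further lower genes belong to transcription, the nucleolus, the cytoskeleton, myeloid signaling and Notch. Gtf2b, the general factor TFIIB, held 49.8, 96.5, 92.4 and 72.3 CPM with NMU and 140, 132, 127 and 137 CPM with PBS in ILC2, a difference of -0.91 (adjusted p = 0.0261, edgeR), lost without mouse 1, 4, 5 or 8 (0.0722 to 0.0993). Mybbp1a, a nucleolar protein, differed by -1.22 (adjusted p = 0.0266, edgeR), lost without mouse 1, 3, 5, 6 or 8 (0.0630 to 0.103), and Tuba4a, an alpha tubulin, by -0.93 (adjusted p = 0.0257, edgeR), lost without mouse 1, 3, 4, 5 or 8 (0.0523 to 0.0851). Plek, a protein kinase C substrate of platelets and leukocytes including macrophages, measured 9.89, 7.55, 3.96 and 5.94 CPM with NMU and 66.7, 46.1, 14.6 and 133 CPM with PBS in ILC2. Its difference was -2.95 (adjusted p = 0.0217, edgeR), lost without mouse 1, 3, 4, 5, 6 or 8 (0.0503 to 0.0754). Hey1, a target gene of Notch and the only member called among 14 of that pathway, measured 140, 33.0, 44.0 and 44.1 CPM in ILC2 of NMU mice and 229, 127, 111 and 98.1 CPM in ILC2 of PBS mice. Those ILC2 ranges overlap through mouse 1. Its difference was -1.86 (adjusted p = 0.0172, edgeR), lost without mouse 3, 5 or 8 (0.0566 to 0.0713). The change within ILC2 was -1.11 and did not pass (adjusted p = 0.146, edgeR), beside 0.54 in NMUR1+ and 0.48 in NMUR1- cells.

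The gene lists differed in how they sat around 0. By the median difference over tested members, proliferation genes stood highest at 1.17, followed by inhibitory receptors at 0.54, TNF superfamily costimulators at 0.48 and peptide hormone processing genes at 0.38. Notch pathway genes stood lowest at -0.88, followed by cytokines at -0.63 and chaperones at -0.43. Part of this order came from members with few counts. Over well expressed members alone the median was 0.85 for the 7 cytokines, -0.05 for the 6 Notch genes, 0.27 for the 9 MAP kinase feedback genes, -0.36 for the 12 chaperones, and 1.09 for the 4 peptide hormone processing genes. The cytokine and MAP kinase lists changed sign, as did the clock genes (0.03 over 12 members, -0.38 over all) and the interferon response genes (0.01 over 15 members, -0.03 over all). ILC2 identity genes had a median of -0.02 with 0 of 22 called, and among them Gata3 differed by -0.12, Il1rl1, the IL-33 receptor gene, by 0.13, and Rora by 0.03. In 8 of the 20 lists 0 genes passed; over the 156 genes of those lists, 11 higher and 17 lower had an unadjusted p under 0.05 by edgeR, DESeq2 called 3 higher and 7 lower, and limma 0. Those lists are AP-1, calcium signaling, ILC2 identity, cytokine receptor feedback, cholesterol and amino acid supply, clock, interferon response and peptide hormone processing genes.

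**Figure D4:**
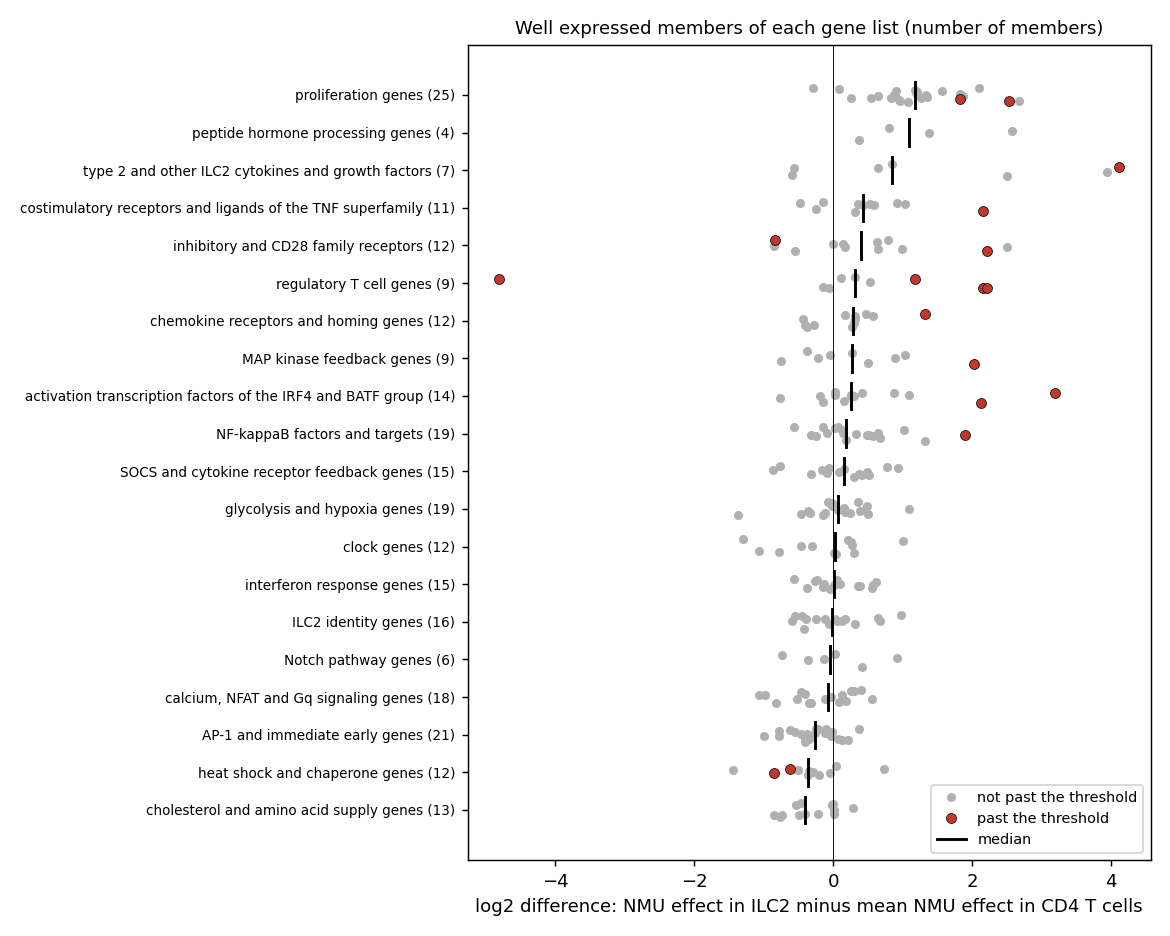
Each dot is a well expressed member of a gene list, at its log2 difference (NMU effect in ILC2 minus the mean NMU effect in CD4 T cells), red where it passed the threshold, with the list's median as a bar and the number of members in brackets. The bar of the 25 proliferation genes stands at 1.17, and that of the 12 chaperone genes at -0.36.

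In the genes between the classes, 4 lower genes were named. Pfkfb4, a glycolytic regulator induced by low oxygen, had 1 count over the 4 ILC2 libraries of NMU mice and 536 over those of PBS mice, a PBS over NMU ratio of 510 with a 95% exact counting interval of 91.2 to 20189. It passed whichever mouse was left out, and was the only gene called among 22 of glycolysis and hypoxia. Ly6c2, a monocyte antigen also found on some T cells, had 1 and 710 counts, a ratio of 676 (interval 121 to 26731), and lost its call without mouse 1, 3 or 4 (adjusted p 0.0563 to 0.0754). Of its PBS reads most came from mouse 8, which held 44.5 CPM against 3.17 to 4.25 CPM in mice 5, 6 and 7. Ccl3, a macrophage and T cell chemokine, held 0.00, 0.00, 2.21 and 0.858 CPM in ILC2 of NMU mice and 39.1, 68.9, 10.4 and 5.09 CPM in ILC2 of PBS mice (adjusted p = 0.0378, edgeR), lost without mouse 1, 2, 4, 5, 6 or 7 (0.0627 to 0.130). Postn, a matrix gene of fibroblasts, held 1.36 CPM in mouse 4 and 0.00 CPM in the other NMU mice, and 17.2, 25.3, 4.06 and 21.4 CPM in ILC2 of PBS mice (adjusted p = 0.0266, edgeR), lost without mouse 1, 3, 5, 6 or 8 (0.0678 to 0.0951).

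The zero-group genes were a separate kind of result. All 27 called genes had 0 counts in the 4 ILC2 libraries of NMU mice. Among genes tested, 912 had 0 counts in ILC2 of NMU mice and 421 in ILC2 of PBS mice, of which 27 and 0 were called in that order. In ILC2 of PBS mice the 27 held 26 to 981 counts each, and 18 of them had counts in all 4 libraries. Against a floor of 3 counts over the 4 NMU libraries, they were at least 8.25-fold to 311-fold lower. The 311 is that of Clec4e, which held 61.4 CPM in ILC2 of mouse 8 and 0.0792 to 9.60 CPM in those of mice 5, 6 and 7. The 8.25 is that of the immunoglobulin segment Ighv1-52. Its mean in NMUR1+ cells was 73.8 CPM in NMU mice and 0.42 CPM in PBS mice, so its difference also drew on the T cells. Floors and intervals cover counting error only, since amplified reads carry no molecular identifiers. Snx9, an endocytosis protein, measured 4.08, 5.46, 12.3 and 5.40 CPM in ILC2 of PBS mice and was at least 101.9-fold lower (adjusted p = 9.2e-05, edgeR), and its NMUR1+ cells averaged 64.9 ± 21.3 CPM in NMU mice and 70.2 ± 11.5 CPM in PBS mice. Cd40lg, the CD40 ligand of helper T cells, measured 4.00, 0.475, 3.60 and 3.24 CPM in ILC2 of PBS mice and was at least 42.8-fold lower (adjusted p = 0.0021, edgeR). Slamf8, a receptor of macrophages, measured 14.7, 1.66, 3.60 and 3.32 CPM in ILC2 of PBS mice and was at least 88.8-fold lower (adjusted p = 0.0021, edgeR).

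Several of the 27 are known from myeloid cells, among them Clec4d, Clec4e, Clec5a, Aoah, Scimp, Mefv and the Sirpb1 genes, and others from the matrix, such as Lum and Emilin2. In 23 of the 27 the PBS level was higher in NMUR1+ than in NMUR1- cells. The same share over all genes tested was not counted, so the 23 are a description only. The summed level of the 27 genes was 0 CPM in each ILC2 library of NMU mice, which follows from how they were chosen, and 156, 151, 79.9 and 178 CPM in those of PBS mice. In T cell libraries the sum ran from 444 to 1012 CPM in NMUR1+ cells of NMU mice, 339 to 882 CPM in those of PBS mice, 255 to 331 CPM in NMUR1- cells of NMU mice and 228 to 326 CPM in those of PBS mice. The marker sums of other cells overlapped between treatments in ILC2. B and plasma cell markers summed to 1131 to 6251 CPM in ILC2 of NMU mice and 5439 to 60500 CPM in ILC2 of PBS mice, fibroblast markers to 91.0 to 123 CPM and 76.6 to 571 CPM, and macrophage and dendritic cell markers to 2288 to 4418 CPM and 2064 to 8317 CPM, in that order. Single B and plasma cell markers did separate in ILC2. Jchain held 6.92 to 925 CPM in ILC2 of NMU mice and 1410 to 15800 CPM in ILC2 of PBS mice. Igha held 33.4 to 1550 and 1720 to 26500 CPM, and Pou2af1 0 to 2.14 and 3.09 to 38.1 CPM, in that order. Cd79b went the other way, with 59.8 to 155 and 37.5 to 58.1 CPM. In ILC2 of NMU mice Itgax, Flt3 and Clec9a among the 16 macrophage and dendritic cell markers were at 0 counts, and so were Lum and Mgp among the 13 fibroblast markers. Cd14, a monocyte receptor for lipopolysaccharide, was the only one of the 16 whose ranges did not overlap, with 0.685 to 13.3 CPM in ILC2 of NMU mice and at least 28.6 CPM in each ILC2 library of PBS mice, or 380 and 5632 counts in that order. The part of such cells in the 27 lower genes, and in Plek, Entpd1, Ccl3, Ly6c2 and Postn, was not tested. A fit with Jchain and Lyz2 as covariates kept 7 of the 27, but calls were lost in every class. It kept 16 of the 55 higher and 2 of the 26 lower well expressed genes. Of the genes in between it kept 3 of the 5 higher and 4 of the 24 lower.

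**Figure D5:**
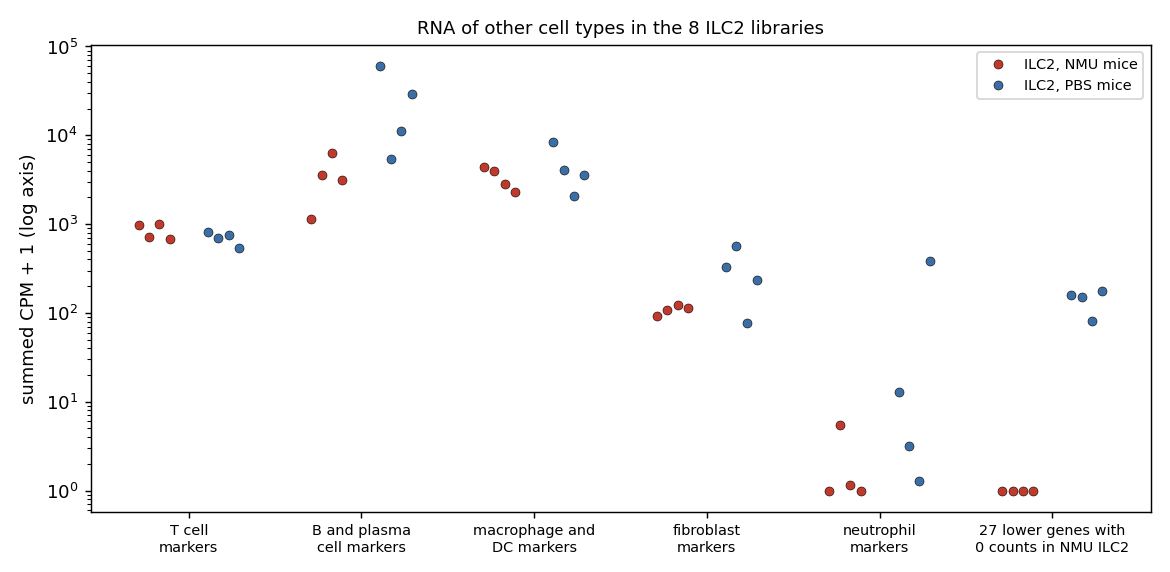
Summed CPM plus 1, on a log axis, of 5 marker lists and of the 27 lower zero-group genes in the 8 ILC2 libraries, NMU in red on the left and PBS in blue on the right of each pair. The T cell sums overlap between treatments. The sums of the 27 genes are 0 in the 4 NMU libraries and 79.9 to 178 CPM in the 4 PBS libraries. These genes were chosen as lower with 0 counts in NMU ILC2, so that gap follows from the choice.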

How the data were processed

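RNA of 3 sorted populations from 8 mice was sequenced with a low-input kit that marks neither strand nor molecules. Values are whole-number read counts per gene, deposited by the authors as 1 table of 27179 genes. STAR 2.5.3 and build mm10 are named per the submitters' processing notes, while for the counter, its annotation and its strand setting nothing is given in the sources used here. Genes that share reads with near-identical copies, overlapping genes and antisense partners are therefore uncertain. RefSeq symbols matched 25275 genes (93.0%), and genes without a symbol held 0.986% of counts. Replicates differed by more than counting noise, with a chi-square per degree of freedom of at least 16.55, so each counted as a sample. The labels give 1 mouse per number, without saying more of its origin.

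Genes passing filterByExpr (minimum count 10), 13509 in number, were scaled by TMM (factors 0.719 to 1.16) and fitted with edgeR 4.0.16 (R 4.3.3) by the quasi-likelihood test on all 24 libraries. The mouse was a block because the 3 populations of a number come from the same mouse, which left 12 residual degrees of freedom. SE is the absolute log2 value divided by the square root of F. Benjamini-Hochberg adjustment ran over the whole set of tested genes and the threshold was 0.05, and the script was tested on simulated data. CPM are TMM-scaled. DESeq2 1.42.0 and limma 3.58.1 were alternatives, with other scaling, no filter, no block, covariates and left-out mice.

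Named genes were Irf4, Ctla4, Tnfrsf4, Nmur1 and 6 cytokines whatever their test. To these were added called genes with the largest difference and no overlap within mice (up to 8 per direction when well expressed, up to 4 in between), up to 3 zero-group genes by p, and up to 2 per list and direction by p. Immunoglobulin and T cell receptor segments were left out of naming. A gene that the rule names is not reported here. Other genes were singled out after their values were seen. The members and gene lists were chosen with earlier results of these data known.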

Additional observations from a re-analysis of the deposited data

Results flagged for a closer look

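The difference between the NMU effect in ILC2 and in CD4 T cells passed edgeR's test for the named genes below, which is what brings them here. The higher ones were Kmo at 4.17, Penk at 4.12, Ndrg1 at 3.45, Tox2 at 3.20, Cdca5 at 2.99, Tk1 at 2.52, Ttc39c at 2.24, Plxnd1 at 2.24, Ctla4 at 2.21, Tnfrsf4 at 2.16, Irf4 at 2.12, Dusp4 at 2.03, Cd83 at 1.90, Asf1b at 1.83 and Ccr7 at 1.32 on the log2 scale. The lower ones were Ccl3 at -4.50, Entpd1 at -4.81, Postn at -5.48, Plek at -2.95, Atp8a2 at -2.61, Cd7 at -2.60, Hey1 at -1.86, Mybbp1a at -1.22, Tuba4a at -0.93, Gtf2b at -0.91, Dnaja1 at -0.86, Vsir at -0.83 and Hspa8 at -0.62. For genes with 0 or 1 count in ILC2 of NMU mice the fitted value moves with the prior count and gives no bound: Snx9 at -9.48, Slamf8 at -9.08, Ly6c2 at -8.33, Pfkfb4 at -8.18 and Cd40lg at -7.88.

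In 5 of 104 groups of 4 values, 1 library stood far from the other 3, and chance marks about 1 group in 20. The within-mouse difference of Asf1b was 0.25 in mouse 4, against -1.38 to -1.12 in the other NMU mice. That of Kmo was -6.38 in mouse 5, where Kmo had 0 counts in ILC2, against -0.60 to -0.25 in the other PBS mice. Neutrophil markers summed to 4.50 CPM in ILC2 of mouse 2 and to at most 0.152 CPM in the other NMU mice, and to 379 CPM in ILC2 of mouse 8 and at most 11.99 CPM in the other PBS mice. NK cell and ILC1 markers summed to 1819 CPM in ILC2 of mouse 3, against 355 to 573 CPM in the other NMU mice.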

How the results depend on the processing

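The 137 called genes became 43 with Jchain and Lyz2 as covariates, 25 without the NMUR1+ libraries of mice 1, 4, 5 and 7, 46 without the ILC2 libraries of mice 5 and 8 (chosen after seeing the data), 4 with limma and 874 with DESeq2, and 55 to 206 with a mouse left out. For the well expressed higher genes, 55 became 21, 8, 14, 3 and 229 in that order, and 21 to 79 with a mouse left out. For the well expressed lower genes, 26 became 4, 3, 2, 0 and 156, with 15 when low counts were not filtered and 1 to 48 with a mouse left out. For zero-group lower genes, 27 became 8, 5, 14, 1 and 156, and 12 to 28 with a mouse left out. Against NMUR1+ cells, 46 became 27 with the covariates, 26 without the ILC2 libraries of mice 5 and 8, 5 with limma, 602 with DESeq2 and 23 to 79 with a mouse left out. Against NMUR1- cells, 36 became 20 with the covariates, 4 with limma, 460 with DESeq2 and 11 to 45 with a mouse left out. Between the T cell populations, 1 became 0 without immunoglobulin genes and with limma, 6 with DESeq2 and 0 to 2 with a mouse left out. Within ILC2, 1053 became 74 when its 8 libraries were fitted alone. Without the mouse as a block the pairing within mice is ignored, and the counts were 202 in all, 98 against NMUR1+ cells, 72 against NMUR1- cells, 0 between the T cell populations and 61 zero-group lower genes. The other scalings (156 and 147), no filter (107) and leaving out immunoglobulin genes (145) stayed within 1.5 times of 137. Over the named genes, 499 gene and setting pairs kept their side of the threshold and sign, 231 lost the call and 1 gained it. The sign turned in 7, none of them called: Csf2 at -0.48 with the covariates, Il5 at -0.61 when mouse 8 was left out (-0.61 to 2.11 over all mice left out), and Nmur1 at 0.069 and 0.0031 when mouse 1 or 8 was left out (-0.17 to 0.069 over all), 0.27 with the covariates, 0.23 without the ILC2 libraries of mice 5 and 8 and 0.20 with limma. Settings with fewer libraries have fewer degrees of freedom, and otherwise the cause was not tested. In NMUR1- cells Il5 had 9 counts in NMU mice and 17 in PBS mice, which limits its value there.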
